A study of Arabidopsis thaliana with 12 samples.

Results

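Aquaporins are membrane channels for water and small solutes. The 10 genes described here are the tonoplast genes TIP3;1 (the alpha form) and TIP3;2 (the beta form), which belong to the tonoplast intrinsic proteins (TIP), and 8 genes of the plasma membrane intrinsic proteins (PIP): PIP1;1, PIP1;2, PIP1;3, PIP1;4, PIP1;5, PIP2;1, PIP2;7 and PIP2;8. They were taken by name from a family list of 35 Arabidopsis aquaporin genes. All 10 members had enough reads to be tested, among 18413 tested genes of 36795 loci in the tables. RNA sequencing was done on Arabidopsis thaliana seeds of the wild type Col-0 and of the mutant odr1-2 (ODR1 is known as a regulator of seed dormancy). Each genotype was sampled after 12 h in water, the control medium, or in 300 mM mannitol, an osmotic stress. Each of these 4 groups had 3 biological replicates. Seeds in water are called unstressed and seeds in mannitol stressed. All 12 seed samples were after-ripened and had spent 2 days at 4°C before the medium was given. The kind of mutation in odr1-2 is not given in the sources used here, and the ODR1 transcript was not analysed here. Depth ran from 10060020 to 13693166 counts per library. Whether replicates came from separate parent plants is not stated, so p-values measure the spread between these samples.

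TIP proteins sit in the membrane of the vacuole, the tonoplast, and PIP proteins in the plasma membrane, so a water molecule that enters a cell and then its vacuole can pass through both kinds of channel in turn. Both TIP3 proteins are known as the seed forms, found in the membranes of protein storage vacuoles during maturation and lost as the vacuoles of the seedling form. PIP2 proteins are efficient water channels, whereas PIP1 proteins act largely in complexes with PIP2 partners. The B3 transcription factors ABI3 and FUS3 are known to act on seed genes through the RY motif, and the bZIP factor ABI5 through motifs with an ACGT core.

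The 200 bases before the annotated start of each gene were read from the RefSeq assembly TAIR10.1 and searched on both strands for the RY motif CATGCA and for the ABA-response core ACGTG. No window overlapped another annotated gene. The windows of the tonoplast genes (chr1:27521744-27521943 for the alpha form and chr1:6129825-6130024 for the beta form, both on the forward strand) are shown because these genes had the largest changes, and that of PIP2;7 (chr4:16708161-16708360, forward strand) because it was the most abundant of the genes that fell in mannitol in both genotypes. Capitals mark matches to either motif.
TIP3;1: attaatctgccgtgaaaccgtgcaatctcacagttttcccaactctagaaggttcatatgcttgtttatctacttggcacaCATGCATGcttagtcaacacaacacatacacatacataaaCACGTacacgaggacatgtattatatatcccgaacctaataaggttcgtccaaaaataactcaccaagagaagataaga
TIP3;2: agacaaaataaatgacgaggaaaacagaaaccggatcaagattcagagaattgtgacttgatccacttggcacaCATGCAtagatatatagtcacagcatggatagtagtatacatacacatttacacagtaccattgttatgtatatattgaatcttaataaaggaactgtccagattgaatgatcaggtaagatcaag
PIP2;7: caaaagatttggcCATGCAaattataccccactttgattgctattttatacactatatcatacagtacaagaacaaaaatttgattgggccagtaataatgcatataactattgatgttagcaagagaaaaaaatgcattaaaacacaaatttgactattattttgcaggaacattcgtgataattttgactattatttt
The first window held RY matches that begin 119 and 117 bases before the start and overlap each other, and an ACGTG match at 79 bases. The second had an RY match at 126 bases and no ACGTG match. The longest run of letters shared by these windows, acttggcacaCATGCAt, spans 17 bases and holds the RY match. It begins 129 bases before the start of the alpha form and 136 bases before that of the beta form. In the other 44 pairs of members the longest shared run was between 7 and 12 bases, with a median of 8. RY matches also stood in the windows of PIP1;1 (77 bases before the start), PIP1;5 (9), PIP2;7 (187) and PIP2;8 (38), and none was found in those of the other 4 genes. Thus 6 of the 10 windows held an RY match and 1 an ACGTG match, where 6.69% and 19.8% of 27438 windows of the same length across the genome did. The members with an RY match included genes that rose, fell or were not called in mannitol.

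In RefSeq TAIR10.1 both tonoplast genes lie on the forward strand of chromosome 1, with 3 exons each: TIP3;1 (AT1G73190) at chr1:27521944-27523332 and TIP3;2 (AT1G17810) at chr1:6130025-6131627. The PIP1 genes are PIP1;1 (AT3G61430, chr3:22733243-22735394), PIP1;2 (AT2G45960, chr2:18910081-18911982), PIP1;3 (AT1G01620, chr1:225665-227543), PIP1;4 (AT4G00430, chr4:185285-187680) and PIP1;5 (AT4G23400, chr4:12220641-12222468). The PIP2 genes are PIP2;1 (AT3G53420, chr3:19803473-19805730), PIP2;7 (AT4G35100, chr4:16708361-16710407) and PIP2;8 (AT2G16850, chr2:7301334-7303509). Coding sequences were 78.0% identical between the TIP3 genes, from 75.7% to 85.0% between PIP1 genes, 84.0% between PIP2;7 and PIP2;8, and from 49.1% to 53.7% between TIP3 and PIP genes. No exonic stretch of 50 bases of any member occurred elsewhere in the genome.

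Levels are given in TPM, a unit that the authors scaled by transcript length and library, so they can be set side by side between genes. In Col-0 seeds in water the alpha form stood at 344 ± 8.78 TPM (SD, n = 3 here and throughout), PIP2;7 at 286 ± 3.61 TPM, PIP1;2 at 186 ± 5.22 TPM and the beta form at 97.3 ± 4.54 TPM, and no other member exceeded 50.3 ± 2.59 TPM. The odr1-2 seeds in mannitol had the alpha form at 3145 ± 9.18 TPM, the beta form at 1187 ± 12.2 TPM, PIP1;2 at 194 ± 4.42 TPM and PIP2;7 at 111 ± 4.88 TPM. PIP2;8 and PIP2;1 were the most sparsely counted members, with as few as 27 and 35 counts in a library, while the alpha form had between 2603 and 27878.

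Genes were tested with the edgeR quasi-likelihood test on raw counts, and the words rose, fell and differed are kept for an adjusted p under 0.05 (Benjamini-Hochberg over all genes tested). Values after ± beside a log2 fold change are standard errors. In Col-0, mannitol raised 3 members and lowered 4, against a background in which 42.4% of all tested genes were called, 21% higher and 21.4% lower. In odr1-2 it also raised 3 and lowered 4 (background 42.5%, 21.2% higher and 21.3% lower). The mutant exceeded Col-0 in water for 5 members and was below it for 2 (background 39%, 20.4% higher and 18.6% lower). In mannitol 4 members were higher in the mutant and 1 was lower (background 40.1%, 20.5% higher and 19.6% lower). The interaction, which asks whether the log2 effect of mannitol differed between the genotypes, was called for 0 members in the positive and 2 in the negative direction, where 3.75% of all genes were called, 1.08% positive and 2.67% negative. The median log2 fold change of the 10 members was -0.24 for mannitol in Col-0, -0.06 for mannitol in odr1-2, 0.28 for the mutant in water and 0.22 for the mutant in mannitol, while the median of all tested genes was 0.003, -0.003, -0.002 and -0.001. A median near that of all genes covers members that moved in opposite directions: both tonoplast genes rose in each of these 4 comparisons, and all the falls were in PIP genes. The comparisons share groups of samples and are not independent of each other.

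**Figure D1:**
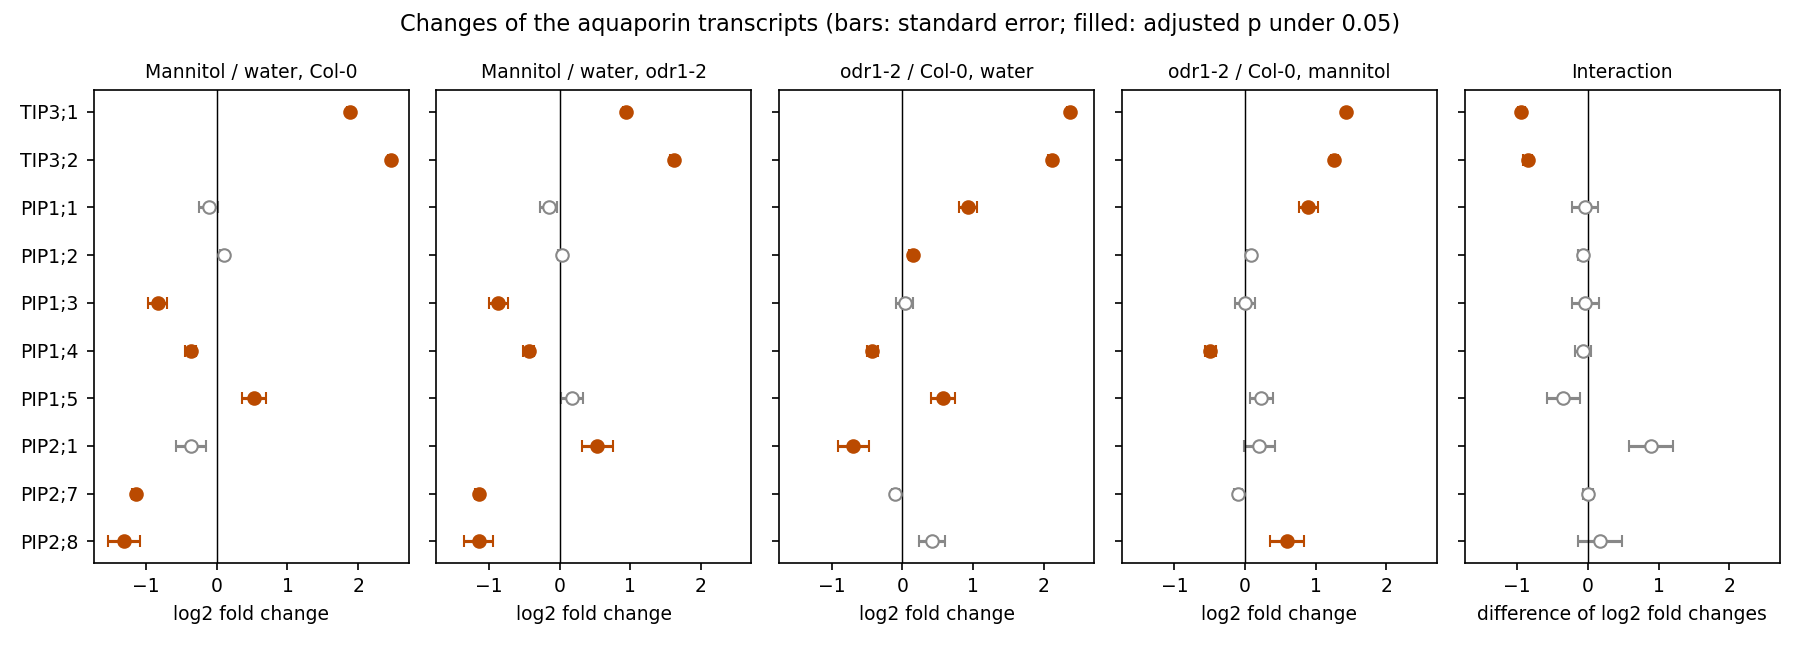
Log2 fold changes of the 10 aquaporin genes in the 4 pairwise comparisons and the interaction (x axis, log2 units). Points are estimates of the edgeR fit with standard errors, filled where the adjusted p is under 0.05. Both TIP3 genes lie far to the right in the pairwise panels and to the left of 0 in the interaction, and 4 PIP genes have filled points to the left of 0 in both mannitol panels.

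The alpha form TIP3;1 rose with mannitol and was higher in the mutant. The Col-0 water libraries held 338, 354 and 341 TPM and the Col-0 mannitol libraries 1266, 1192 and 1205 TPM. The odr1-2 water libraries held 1791, 1736 and 1762 TPM and the odr1-2 mannitol libraries 3154, 3136 and 3147 TPM. The 4 groups did not overlap, and unstressed mutant seeds lay above stressed wild-type seeds. Mannitol raised it by 1.88 ± 0.04 on the log2 scale in Col-0 (3.69-fold, adjusted p = 4.57e-50) and by 0.94 ± 0.04 in odr1-2 (1.92-fold, adjusted p = 1.66e-33). The mutant was above Col-0 by 2.37 ± 0.04 in water (5.18-fold, adjusted p = 1.21e-55) and by 1.43 ± 0.04 in mannitol (2.70-fold, adjusted p = 1.41e-43). Seeds were sequenced in bulk, so fewer cells of a type and less RNA per cell cannot be told apart.

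The beta form TIP3;2 moved the same way from a lower level. Its Col-0 libraries held 92.0, 100.2 and 99.6 TPM in water and 540.2, 485 and 527 TPM in mannitol. Its odr1-2 libraries held 418, 419.6 and 415 TPM in water and 1173, 1196 and 1193 TPM in mannitol. The groups did not overlap here either, but unstressed mutant seeds lay below stressed wild-type seeds. Mannitol raised it by 2.46 ± 0.05 in Col-0 (5.52-fold, adjusted p = 1.84e-51) and by 1.61 ± 0.04 in odr1-2 (3.06-fold, adjusted p = 9.3e-43). The mutant exceeded Col-0 by 2.12 ± 0.05 in water (4.33-fold, adjusted p = 1.18e-47) and by 1.26 ± 0.04 in mannitol (2.40-fold, adjusted p = 6.26e-37). Between the extreme groups, Col-0 in water and odr1-2 in mannitol, the alpha form differed 9.94-fold and the beta form 13.3-fold.

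**Figure D2:**
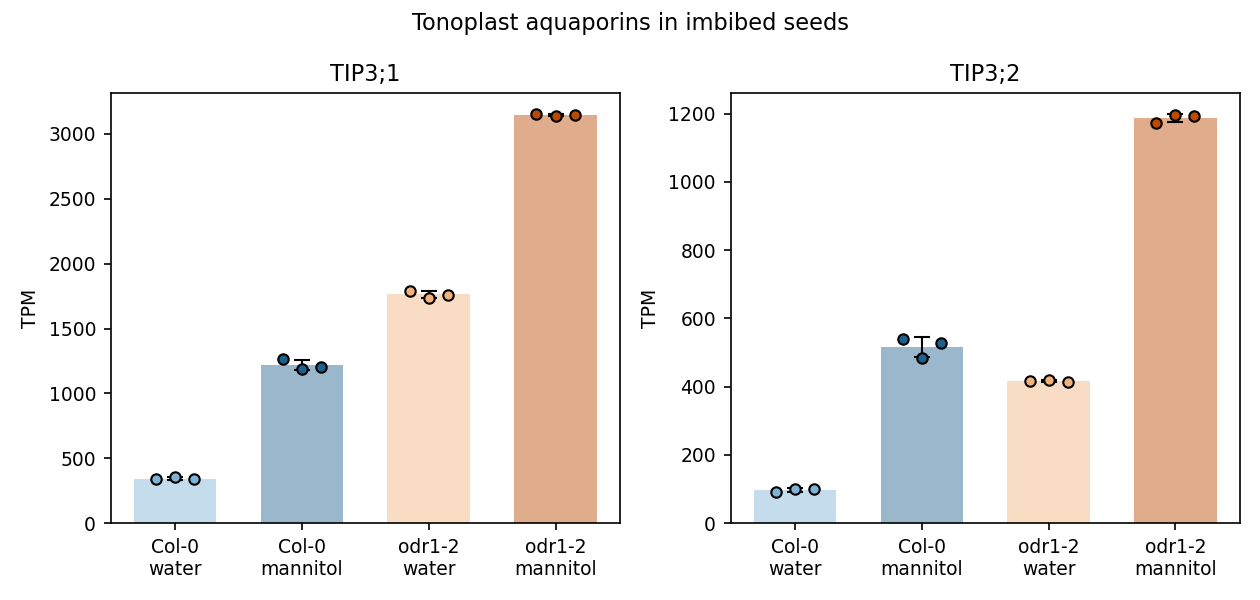
Levels of the TIP3 genes (y axis, TPM) in the 4 groups (x axis), with points for libraries, bars for means and error bars for the SD over 3 libraries. The alpha form is higher in odr1-2 in water (1763 TPM) than in Col-0 in mannitol (1221 TPM), and the beta form is lower (417 against 517 TPM).

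The middle groups of the order were thus swapped between the seed tonoplast genes, and the test of these groups against each other called both. The alpha form was higher in odr1-2 in water than in Col-0 in mannitol by 0.49 ± 0.04 (adjusted p = 1.44e-18), and the beta form was lower (-0.35 ± 0.04, adjusted p = 4.56e-10). The ratio of the alpha to the beta form, both in TPM, was 3.54 ± 0.123 in Col-0 in water and 2.36 ± 0.0870 in Col-0 in mannitol. In odr1-2 it was 4.22 ± 0.0763 in water and 2.65 ± 0.0344 in mannitol. Mannitol lowered the log2 ratio by 0.63 on average over the genotypes, and the mutant exceeded Col-0 by 0.21 on average over the media. Each effect had p = 0.005 in an exact two-sided permutation test of libraries within genotype or within medium, the smallest that the 400 arrangements allow. Every library in mannitol had a lower ratio than every library in water.

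For both TIP3 genes the relative effect of mannitol was smaller in the mutant. The interaction was -0.94 ± 0.05 for the alpha form (adjusted p = 4.61e-23) and -0.85 ± 0.06 for the beta form (adjusted p = 2.52e-17). On the linear scale the order was the other way round: summed over both genes, the mannitol and water groups lay 1297 TPM apart in Col-0 (3.94-fold) and 2152 TPM apart in odr1-2 (1.99-fold). The interaction therefore concerns fold changes and not added amounts.

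Most seed identity markers changed in the same direction as the TIP3 genes, by amounts that differed between markers. All 6 (the cruciferins CRA1 and CRC, the oleosins OLEO1 and OLEO2, and the maturation proteins EM1 and EM6) rose with mannitol in both genotypes, 6 were higher in the mutant in water and 5 in mannitol, and 5 had a negative interaction. Their median log2 fold change was 1.62 for mannitol in Col-0 and 0.96 in odr1-2, against 2.17 and 1.28 for the TIP3 genes. For the mutant it was 1.08 in water and 0.53 in mannitol, against 2.24 and 1.35. Between unstressed odr1-2 and stressed Col-0 seeds, 2 markers were higher and 3 lower (background 37.9%). EM1 stood at 370 TPM in unstressed odr1-2, 1083 TPM in stressed Col-0 and 1066 TPM in stressed odr1-2. Of all tested genes 42.4% and 42.5% were called for mannitol, and 39% and 40.1% for the mutant. The summed level of the 6 markers ran from 9004 to 9156 TPM in unstressed Col-0 and from 23258 to 24826 TPM in stressed Col-0. In odr1-2 it ran from 22693 to 23066 TPM in unstressed and from 38356 to 38874 TPM in stressed seeds. The 3 markers of the micropylar endosperm (EPR1, EXPA2 and MAN7) summed to between 3478 and 3852 TPM in unstressed Col-0, 3047 and 4980 TPM in stressed Col-0, 8630 and 9586 TPM in unstressed odr1-2 and 9352 and 10127 TPM in stressed odr1-2. Of these 3, all were higher in the mutant in both media, 1 rose with mannitol in Col-0 and 1 fell in odr1-2. The 3 seed coat markers summed to at most 5.08 TPM in any library, and BAN and TT4 had too few counts to be tested. The 3 leaf markers summed to between 455 and 665 TPM, nearly all of it RBCS1A, and the 2 pollen markers to at most 1.02 TPM. The part of these markers in the aquaporin results was not tested.

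A limit of both tonoplast genes lies in their 3′ ends, where genes on the opposite strand are annotated, and whether the counting used strand is not given in the sources used here. AT1G73200, a protein-coding gene, shares 290 exonic bases with TIP3;1, 24.6% of its exon length. Its counts amounted to 45.4% of those of its partner in unstressed Col-0, 38.8% in stressed Col-0, 37.6% in unstressed odr1-2 and 38.7% in stressed odr1-2. AT1G05333, a long non-coding RNA, shares 462 exonic bases with TIP3;2 (39.4%), and its counts amounted to 55.9%, 56.3%, 57.9% and 58.1% of those of its partner in the same order. AT1G17820, which shares 91 bases with the same gene, had 0 counts in every group. It lies within the annotated span of AT1G05333 and on the same strand. How reads of overlapping loci were counted is not known here, so the 0 counts do not show that AT1G17820 was silent. AT1G73200 rose with mannitol by 1.65 ± 0.05 in Col-0 and by 0.98 ± 0.04 in odr1-2, and AT1G05333 by 2.47 ± 0.05 and 1.62 ± 0.05. The exon annotated for AT1G05333 in TAIR10.1 lies wholly within the last exon of TIP3;2. Its gene span, however, runs on to 5320 bases from the start of TIP3;2. In Col-0 in water AT1G05333 had 1414 counts and a mean of 19.4 TPM, beside 2529 counts and 97.3 TPM for TIP3;2. TPM is scaled by length, so the authors' length for AT1G05333 was longer than that for TIP3;2. Its counts may therefore include reads from outside the shared 462 bases. If strand was not kept in the library or not used in counting, reads from a gene and from its partner could not be told apart. How the reads were divided between them was not tested.

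**Figure D3:**
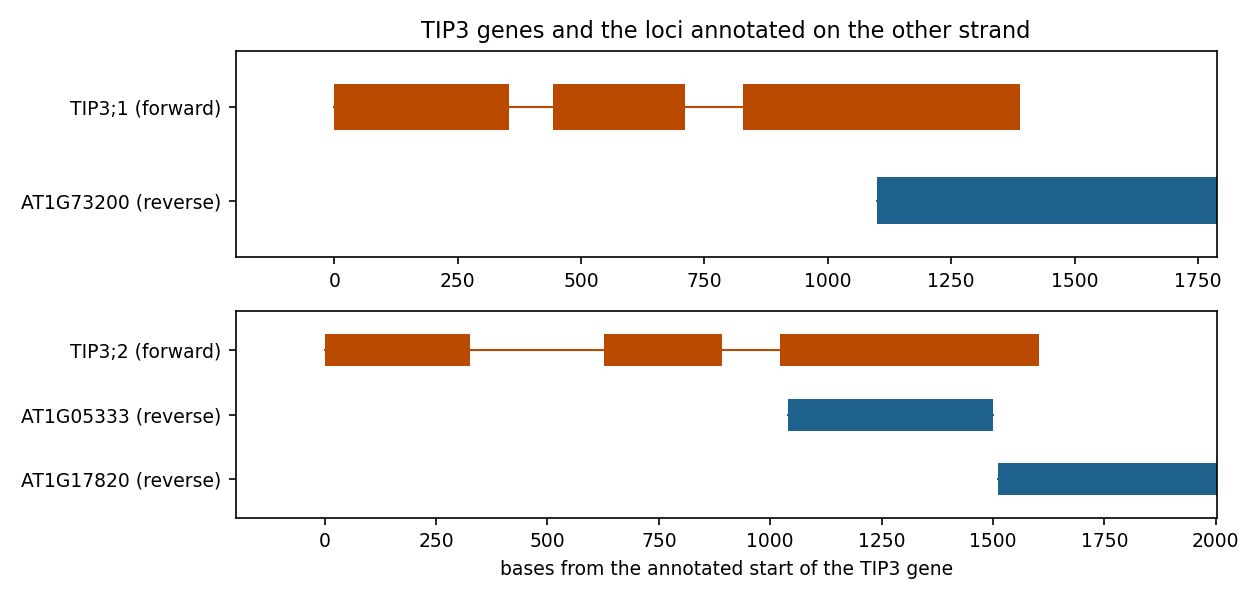
Exons (boxes) of the TIP3 genes and of the loci annotated on the opposite strand (x axis, bases from the annotated start of the TIP3 gene). AT1G73200 and AT1G17820 run on past the right edge. The overlaps of 290 bases with AT1G73200 and 462 bases with AT1G05333 lie in the last exon of the TIP3 genes.

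Among the plasma membrane genes, PIP2;7, PIP2;8, PIP1;3 and PIP1;4 fell with mannitol in both genotypes. PIP2;7, a water channel and the most abundant PIP in Col-0 seeds in water, held 288, 282 and 288 TPM in Col-0 in water and 127, 129 and 117 TPM in Col-0 in mannitol. In odr1-2 it held 262, 262 and 268 TPM in water and 109, 107 and 116 TPM in mannitol. Water and mannitol libraries were far apart, while the genotypes were close within a medium. Within each medium, every mutant library still lay below every Col-0 library in TPM. It fell by 1.14 ± 0.05 in Col-0 (2.21-fold, adjusted p = 6e-31) and by the same 1.14 ± 0.05 in odr1-2 (2.21-fold, adjusted p = 1.52e-30). The interaction was -0.00 ± 0.07, with a 95% interval from -0.14 to 0.13. The mutant stood at -0.10 ± 0.05 against Col-0 in water (adjusted p = 0.0916) and at -0.10 ± 0.05 in mannitol (adjusted p = 0.122). These differences passed the threshold with upper-quartile scaling (-0.15 in water and -0.16 in mannitol) and with total count scaling (-0.12 and -0.16). The gene was higher in odr1-2 in water than in Col-0 in mannitol (1.04 ± 0.05) and lower in odr1-2 in mannitol than in Col-0 in water (-1.25 ± 0.05).

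PIP2;8, the member closest to it in coding sequence, stood far below it. Its Col-0 libraries held 6.20, 10.2 and 6.19 TPM in water and 3.88, 2.40 and 2.55 TPM in mannitol, and its odr1-2 libraries 9.35, 10.85 and 9.72 TPM in water and 4.52, 4.21 and 3.87 TPM in mannitol. The second Col-0 water replicate lay well above the other two and among the mutant's water libraries. It fell with mannitol by 1.32 ± 0.22 in Col-0 (2.49-fold, adjusted p = 1.14e-06) and by 1.15 ± 0.20 in odr1-2 (2.21-fold, adjusted p = 2.8e-06). Its difference between the genotypes was 0.42 ± 0.19 in water (adjusted p = 0.0697) and 0.59 ± 0.24 in mannitol (adjusted p = 0.0457). The call in mannitol was lost when any 1 of 5 libraries was left out (0.48 without Col-0 mannitol replicate 2, 0.50 without Col-0 mannitol replicate 3, and 0.54, 0.59 and 0.65 without odr1-2 mannitol replicates 1, 2 and 3), and by total count scaling (0.53) and the DESeq2 Wald test (0.59). In mannitol the highest Col-0 library and the lowest mutant library overlapped. The difference in water was called without Col-0 water replicate 2 (0.71). The interaction was not called (0.17 ± 0.31), and unstressed mutant seeds were above stressed Col-0 seeds by 1.73 ± 0.22.

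PIP1;3 held 21.9, 18.4 and 18.1 TPM in Col-0 in water and 9.07, 10.96 and 11.2 TPM in Col-0 in mannitol. In odr1-2 it held 21.5, 19.2 and 18.35 TPM in water and 9.59, 11.53 and 8.85 TPM in mannitol. The media were apart and the genotypes overlapped in both. It fell with mannitol by 0.83 ± 0.13 in Col-0 (adjusted p = 2.77e-07) and by 0.87 ± 0.13 in odr1-2 (adjusted p = 1.05e-07). Against Col-0 the mutant stood at 0.03 ± 0.12 in water and at -0.00 ± 0.14 in mannitol, with 95% intervals from -0.21 to 0.27 and from -0.28 to 0.28. The interaction was -0.03 ± 0.19. Across genotypes the media stayed apart, at 0.87 ± 0.13 for unstressed mutant against stressed Col-0 seeds and -0.83 ± 0.13 for stressed mutant against unstressed Col-0 seeds, both called.

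PIP1;4, known to pass hydrogen peroxide as well as water, was the PIP that was lower in mannitol and lower in the mutant. It held 53.1, 48.0 and 49.8 TPM in unstressed Col-0, 38.1, 35.8 and 38.25 TPM in stressed Col-0, 36.9, 34.8 and 39.4 TPM in unstressed odr1-2 and 26.3, 24.6 and 25.3 TPM in stressed odr1-2. Unstressed mutant seeds and stressed wild-type seeds overlapped, and the other groups did not. It fell with mannitol by 0.37 ± 0.07 in Col-0 (adjusted p = 2.22e-05) and by 0.44 ± 0.08 in odr1-2 (adjusted p = 2.98e-06). It was below Col-0 in the mutant in water (-0.42 ± 0.07, adjusted p = 1.95e-06) and in mannitol (-0.49 ± 0.08, adjusted p = 3.14e-07). Its interaction was -0.07 ± 0.11, and from unstressed Col-0 to stressed mutant seeds it fell by 0.86 ± 0.08.

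**Figure D4:**
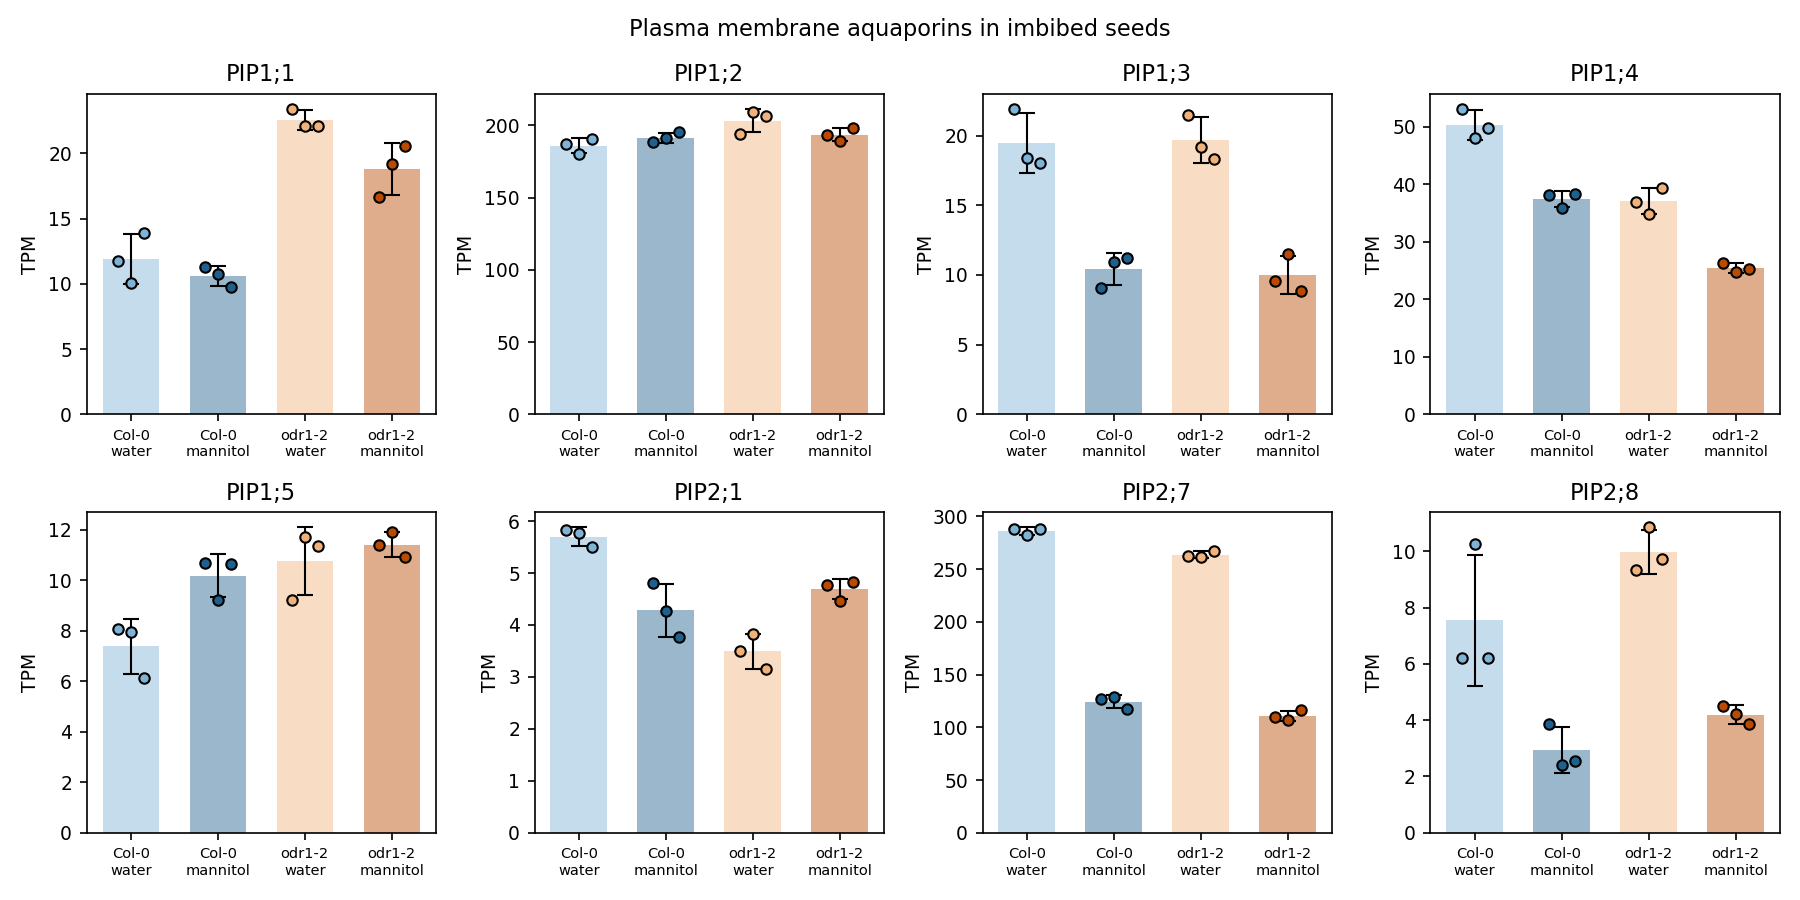
Levels of the 8 plasma membrane aquaporins (y axes, TPM, each with its own scale from 0) in the 4 groups, with points for libraries, bars for means and error bars for the SD over 3 libraries. PIP2;7, PIP2;8 and PIP1;3 separate the media, PIP1;1 separates the genotypes, PIP1;4 steps down with both, and PIP1;2 stays between 180.1 and 209 TPM.

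PIP1;1 differed between the genotypes and was not called for mannitol. It held 11.8, 10.08 and 13.9 TPM in Col-0 in water and 11.3, 10.7 and 9.78 TPM in Col-0 in mannitol. The mutant held 23.4, 22.1 and 22.1 TPM in water and 16.6, 19.2 and 20.6 TPM in mannitol, so every mutant library lay above every Col-0 library. The mutant exceeded Col-0 by 0.93 ± 0.12 in water (1.91-fold, adjusted p = 3.52e-09) and by 0.90 ± 0.13 in mannitol (1.86-fold, adjusted p = 2.9e-08). The effect of mannitol was -0.12 ± 0.14 in Col-0 and -0.15 ± 0.12 in odr1-2, where the mannitol libraries lay below the water libraries in TPM. The interaction was -0.04 ± 0.18. Mutant seeds in water exceeded Col-0 seeds in mannitol by 1.05 ± 0.13, and mutant seeds in mannitol exceeded Col-0 seeds in water by 0.78 ± 0.13.

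PIP1;2, known to pass carbon dioxide as well as water, was the most even member. Its libraries ran from 180.1 to 190.4 TPM in unstressed Col-0, from 188 to 195 TPM in stressed Col-0, from 194 to 209 TPM in unstressed odr1-2 and from 189 to 198 TPM in stressed odr1-2. Neither mannitol effect was called (0.10 ± 0.05 in Col-0, with a 95% interval from 0.00 to 0.20, and 0.03 ± 0.05 in odr1-2, from -0.06 to 0.13). Without Col-0 mannitol replicate 1 the first of these was called (0.13). The mutant exceeded Col-0 in water by 0.15 ± 0.05 (adjusted p = 0.0129), a call lost with upper-quartile scaling (0.10) and without Col-0 water replicate 2 (0.13), odr1-2 water replicate 2 (0.12) or odr1-2 water replicate 3 (0.14). The remaining differences were not called, at 0.08 ± 0.05 for the mutant in mannitol, -0.07 ± 0.07 for the interaction and 0.05 ± 0.05 for unstressed mutant against stressed Col-0 seeds.

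PIP1;5 held 8.06, 7.94 and 6.14 TPM in unstressed Col-0, 10.7, 9.21 and 10.6 TPM in stressed Col-0, 9.23, 11.7 and 11.35 TPM in unstressed odr1-2 and 11.4, 11.9 and 10.9 TPM in stressed odr1-2. Col-0 in water was the lowest group and did not overlap the others. It rose with mannitol in Col-0 by 0.52 ± 0.17 (1.44-fold, adjusted p = 0.00945) and was higher in the mutant in water by 0.58 ± 0.17 (1.49-fold, adjusted p = 0.00412). Both calls were lost without Col-0 water replicate 3, at 0.40 and 0.45. In odr1-2 the effect of mannitol was 0.18 ± 0.16, and the interaction (-0.35 ± 0.23, adjusted p = 0.563) was not called. The mutant stood at 0.23 ± 0.16 against Col-0 in mannitol and, in water, at 0.05 ± 0.16 against Col-0 in mannitol, neither called. Stressed mutant seeds were above unstressed Col-0 seeds by 0.76 ± 0.17.

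PIP2;1, a water channel that the kinase OST1 is known to phosphorylate, was the member whose mannitol estimates had opposite signs, that in Col-0 not called. It held 5.83, 5.78 and 5.50 TPM in Col-0 in water and 4.80, 4.27 and 3.77 TPM in Col-0 in mannitol. In odr1-2 it held 3.50, 3.82 and 3.15 TPM in water and 4.77, 4.47 and 4.82 TPM in mannitol. In TPM the media did not overlap in either genotype. The effect in Col-0 was -0.36 ± 0.21 (adjusted p = 0.171, but called at -0.35 by limma-trend on log2(TPM + 1)) and that in odr1-2 a rise of 0.53 ± 0.22 (adjusted p = 0.0452). The interaction of 0.89 ± 0.31 was not called (adjusted p = 0.0966), so the effects are not shown to differ between the genotypes. It was lower in the mutant in water (-0.69 ± 0.22, adjusted p = 0.00753) and not called in mannitol (0.20 ± 0.22). Nor was it called for unstressed mutant against stressed Col-0 seeds (-0.33 ± 0.23) or stressed mutant against unstressed Col-0 seeds (-0.16 ± 0.21). The rise in odr1-2 was lost without any 1 of odr1-2 water replicates 1 (0.52) and 3 (0.46) and odr1-2 mannitol replicates 1 (0.52), 2 (0.56) and 3 (0.51). It was also lost with total count scaling (0.46) and in the DESeq2 Wald test (0.54).

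The order of the 4 groups by mean TPM differed between the PIP genes, but many neighbours in it were not called apart. For PIP2;7 and PIP1;3 both mannitol groups were the lowest and both water groups the highest, and neighbours of the same medium were not called apart. PIP2;8 had the same division, and odr1-2 in mannitol was also below Col-0 in water (-0.73 ± 0.21), a call lost without Col-0 water replicate 2 (-0.44). PIP1;4 ran from odr1-2 in mannitol up to Col-0 in water, with the middle groups not called apart (-0.05 ± 0.07). PIP1;1 had the mutant groups on top in both media, and PIP1;5 had Col-0 in water at the bottom and the other groups not called apart. For the remaining 2 genes no neighbours in the order of TPM were called apart. Against Col-0 in mannitol, odr1-2 in water had 5 members higher and 1 lower, the beta form (background 37.9%, 19.5% higher and 18.4% lower). Against Col-0 in water, odr1-2 in mannitol had 5 higher and 4 lower (background 61.9%, 31.1% higher and 30.8% lower). Among the 5 was PIP1;2 (0.18 ± 0.05), a call lost with total count scaling (0.09).

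The tonoplast genes held a larger part of the aquaporin transcripts in mannitol than in water in each genotype, and in the mutant than in Col-0 in each medium. Their part of the summed TPM of the 10 members was 42.5%, 44.7% and 43.3% in the Col-0 water libraries and 82.1%, 81.0% and 81.7% in the Col-0 mannitol libraries. It was 79.8%, 79.0% and 79.0% in odr1-2 in water and 92.0%, 92.1% and 91.8% in odr1-2 in mannitol. The groups did not overlap, and mannitol and water lay 38.1 percentage points apart in Col-0 and 12.7 in odr1-2. Of the summed TPM of all 35 family genes, the tonoplast members held 34.7% in Col-0 in water and 73.5% in Col-0 in mannitol. In odr1-2 they held 70.8% in water and 86.9% in mannitol. The 8 PIP genes together held 574 ± 10.4 TPM in Col-0 in water and 571 ± 9.39 TPM in odr1-2 in water. In mannitol they held 392 ± 2.68 TPM in Col-0 and 379 ± 8.64 TPM in odr1-2. The summed PIP level in mannitol was 1.47-fold lower in Col-0 and 1.51-fold lower in odr1-2, while the summed TIP3 level was 441 ± 12.4 TPM in water and 1738 ± 64.7 TPM in mannitol in Col-0, and 2180 ± 26.5 and 4332 ± 6.27 TPM in odr1-2. All these differences had p = 0.1 in an exact two-sided permutation test, the smallest that 3 libraries against 3 allow, except the PIP sum between the genotypes in water (p = 0.6).

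**Figure D5:**
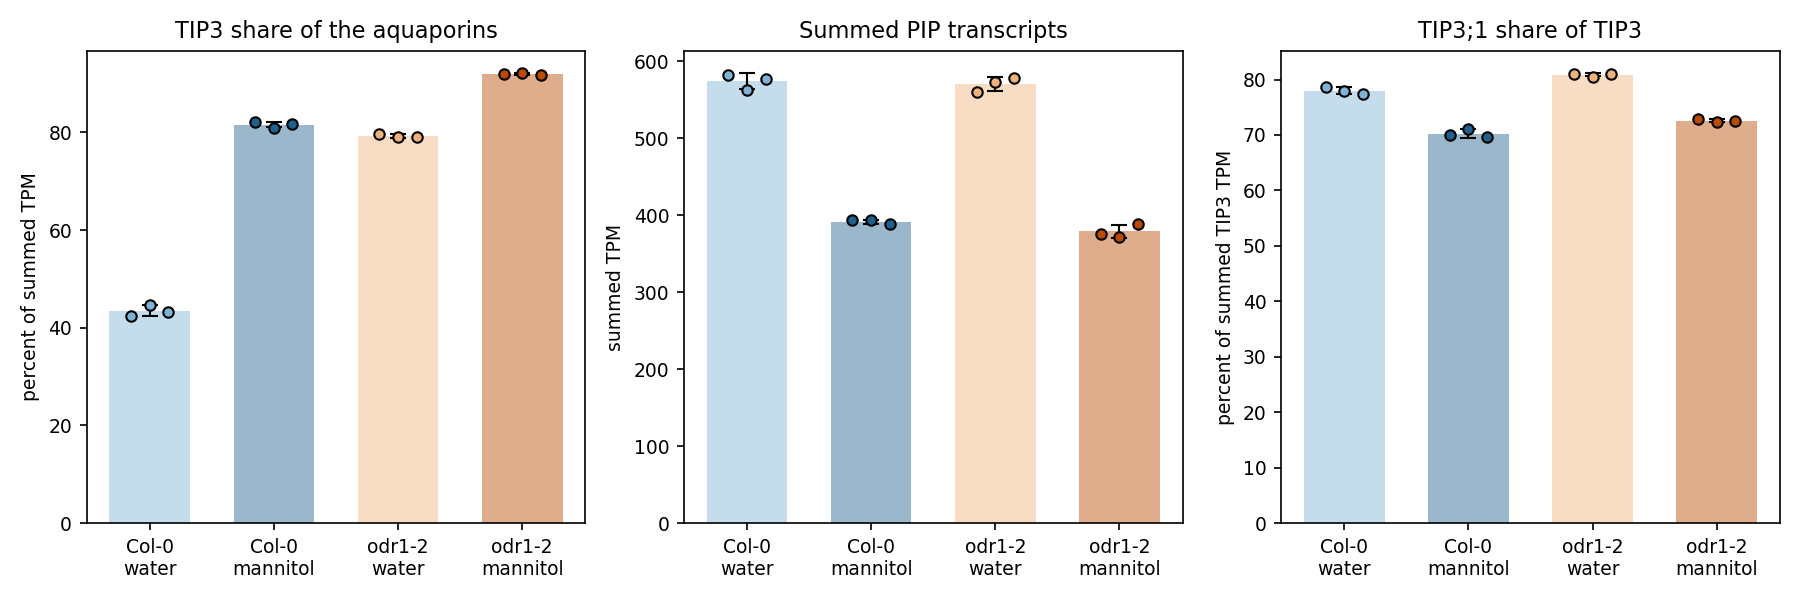
Left, TIP3 genes as a percentage of the summed TPM of the 10 aquaporins. Middle, summed TPM of the 8 PIP genes. Right, the alpha form as a percentage of the summed TIP3 TPM (points, libraries, with means as bars and the SD over 3 libraries as error bars, for the 4 groups). The TIP3 share is lowest in Col-0 in water (43.5%) and highest in odr1-2 in mannitol (92.0%), the PIP sum separates the media, and the alpha share of TIP3 is lower in mannitol in both genotypes.

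Of the 25 other aquaporin genes 10 could be tested, and the remaining 15 had at most 68 counts over the 12 libraries, 7 of them none. The TIP genes of vegetative tissue were among those without enough counts. In the family as a whole 20 genes were tested, of which mannitol raised 5 and lowered 8 in Col-0 and raised 4 and lowered 7 in odr1-2. In the mutant 7 of the 20 were higher and 3 lower in water, and 7 were higher and 2 lower in mannitol. The background was 42.4% and 42.5% called for mannitol in Col-0 and odr1-2, and 39% and 40.1% for the mutant in water and mannitol. All 3 genes of the small basic intrinsic proteins (SIP), channels of the endoplasmic reticulum, fell with mannitol in Col-0: SIP1;2 by 1.48 ± 0.16, SIP1;1 by 0.63 ± 0.09 and SIP2;1 by 0.61 ± 0.15. In odr1-2 the first fell by 0.82 ± 0.16 and the second by 0.24 ± 0.09, the latter call lost when replicate 2 in water (-0.22) or replicate 3 in mannitol (-0.18) was left out, while the third stood at -0.28 ± 0.14. The interaction was not called for any SIP gene (0.67 ± 0.22, 0.38 ± 0.12 and 0.33 ± 0.21 in the same order). In mannitol the second and the third were higher in the mutant (0.36 ± 0.09 and 0.55 ± 0.16), and in water the first was lower (-0.43 ± 0.14), a call lost without Col-0 water replicate 1 (-0.36).

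Among the nodulin-26-like intrinsic proteins (NIP), NIP1;2 was the most abundant, at 119 ± 10.3 TPM in unstressed Col-0, 133 ± 6.15 TPM in stressed Col-0, 194 ± 7.95 TPM in unstressed odr1-2 and 165 ± 4.04 TPM in stressed odr1-2. It rose with mannitol in Col-0 (0.22 ± 0.06) and was higher in the mutant in water (0.72 ± 0.06) and in mannitol (0.38 ± 0.06). Its interaction was called as well (-0.34 ± 0.08, adjusted p = 0.00231). Of the boric acid channels, NIP5;1 rose with mannitol in Col-0 (0.41 ± 0.09) and NIP6;1 fell (-0.48 ± 0.12), and neither was called in odr1-2 (0.06 ± 0.09 and -0.24 ± 0.13). The first was also higher in the mutant in water (0.29 ± 0.09), a call lost without Col-0 water replicate 2 (0.26) or odr1-2 water replicate 3 (0.23).

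Of 9 genes known to act on the delivery, turnover or phosphorylation of PIP proteins, 4 rose and 2 fell with mannitol in Col-0, and 5 rose and 1 fell in odr1-2. Their median log2 fold change was 0.13 and 0.28, and 42.4% and 42.5% of all tested genes were called. In the mutant 3 were higher in water and 5 in mannitol, and 0 were lower (background 39% and 40.1% called). Only 2 of the 5 calls in mannitol, TSPO and OST1, were kept with upper-quartile scaling, total count scaling and limma-trend on TPM, and 3 were kept without Col-0 mannitol replicate 1, Col-0 mannitol replicate 2 or odr1-2 mannitol replicate 2. TSPO, an ABA-induced membrane protein that binds PIP2;7 and carries it to degradation, was at 107 ± 6.10 TPM in unstressed Col-0, 388 ± 31.2 TPM in stressed Col-0, 249 ± 6.13 TPM in unstressed odr1-2 and 562 ± 22.2 TPM in stressed odr1-2. TSPO rose with mannitol by 1.91 ± 0.06 in Col-0 and by 1.28 ± 0.05 in odr1-2, and was higher in the mutant in water (1.23 ± 0.06) and in mannitol (0.60 ± 0.05). RMA3, a relative of the ubiquitin ligase RMA1 that acts on PIP2;1, rose by 0.86 ± 0.22 in Col-0. Its rise in odr1-2 (0.55 ± 0.22) was lost with total count scaling (0.48) and without any 1 of 5 libraries, at between 0.46 and 0.57. SIRK1, a receptor kinase that acts on PIP proteins, fell by 0.55 ± 0.10 in Col-0 and by 0.58 ± 0.10 in odr1-2. OST1 fell with mannitol in Col-0 (-0.69 ± 0.18), was not called in odr1-2 (-0.13 ± 0.15), and was higher in the mutant in water (0.64 ± 0.16) and in mannitol (1.20 ± 0.17). The SNARE protein gene SYP61 was higher in the mutant in mannitol (0.30 ± 0.11), and VAP27-1, a membrane contact site protein, was higher in water (0.20 ± 0.06), a call lost without Col-0 water replicate 2 (0.18) or odr1-2 water replicate 2 (0.17).

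Among 11 proton pump genes of the vacuole and plasma membrane, 3 rose and 4 fell with mannitol in Col-0, and 2 rose and 4 fell in odr1-2, with medians of -0.05 and -0.17. In the mutant 4 were higher and 2 lower in water, and 3 were higher and 2 lower in mannitol. Of all tested genes 42.4% and 42.5% were called for mannitol in Col-0 and odr1-2. For the mutant in water and in mannitol 39% and 40.1% were called. AVP1, the proton-pumping pyrophosphatase of the tonoplast, stood at 1109 ± 19.7 TPM in Col-0 in water and 715 ± 73.0 TPM in Col-0 in mannitol, a fall of 0.58 ± 0.04, and it fell by 0.50 ± 0.04 in odr1-2. AHA2, a proton pump of the plasma membrane, fell by 1.18 ± 0.05 in Col-0 and by 0.85 ± 0.05 in odr1-2. VHA-a2, a subunit of the vacuolar proton ATPase, rose by 0.65 ± 0.07 in Col-0 and by 0.40 ± 0.06 in odr1-2, and was higher in the mutant in water (0.61 ± 0.07) and in mannitol (0.36 ± 0.06). Thus pump genes of the tonoplast moved in both directions.

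Of the embryo programme factors ABI3, FUS3, ABI5, LEC1 and LEC2, 3 could be tested. Mannitol raised ABI3 by 0.26 ± 0.05 and ABI5 by 0.42 ± 0.06 in Col-0, and by 0.19 ± 0.05 and 0.38 ± 0.06 in odr1-2. FUS3 was not called for mannitol (0.38 ± 0.28 in Col-0 and 0.14 ± 0.12 in odr1-2). In the mutant FUS3 was higher by 4.04 ± 0.18 in water and by 3.80 ± 0.18 in mannitol, ABI5 by 0.20 ± 0.06 and 0.16 ± 0.06, and ABI3 stood at 0.01 ± 0.05 and -0.06 ± 0.05. The rise of ABI3 in odr1-2 was lost with total count scaling (0.12) and limma-trend on log2(TPM + 1) (0.086), and the higher ABI5 in the mutant in mannitol was lost with upper-quartile scaling (0.098), total count scaling (0.11) and limma-trend on log2(TPM + 1) (0.094), and without Col-0 mannitol replicate 1 (0.13) or odr1-2 mannitol replicate 1 (0.10).

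For members averaging 10 CPM or more, the 3 genes with the most similar pattern were found among 11567 other genes as those with the smallest root-mean-square difference of centred log2 levels over the 12 libraries. Nearest to the alpha form were the oleosin gene OLEO2 (0.101), the overlapping AT1G73200 (0.115) and AT2G16890 (0.116), and the beta form came at rank 62 (0.333). Nearest to the beta form were the overlapping AT1G05333 (0.0589), AT1G30860 (0.107) and AT1G05510 (0.137). PIP2;7 was nearest to AT4G25260 (0.0786), KCS10 (0.0938) and THE1 (0.0974), and PIP1;3 came at rank 74 (0.222). Nearest to PIP1;3 were AFO (0.109), MUB4 (0.121) and AT1G08590 (0.132), to PIP1;4 SVR7 (0.0446), GYRB1 (0.0506) and AT3G11830 (0.0541), to PIP1;1 CAX7 (0.125), GRF3 (0.140) and MDAR1 (0.142), and to PIP1;2 CKL2 (0.0428), AT2G01220 (0.0455) and FP3 (0.0456). The 3 other members were below that level and were not compared in this way.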

How the data were processed

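Poly-A RNA of 12 seed samples was sequenced. Per the labels, RNA was captured on poly-T beads and copied with random hexamers. The deposited tables hold raw read counts per locus and, by the authors, TPM. The submitters' processing notes list the tools fastp (0.23.1), HTSeq (2.0.5) and HISAT2 (2.2.1), with TAIR10 as build. Strand and multiple-mapping settings are not given in the sources used here. Totals ran from 10060020 to 13693166 counts per library, of which at least 99.9% fell in tested genes. TMM factors ran from 0.960 to 1.03, and the common biological coefficient of variation was 5.80%.

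The test on counts was the quasi-likelihood test of edgeR 4.0.16 (R 4.3.3, TMM, filterByExpr with a minimum count of 10 and minimum total of 15, robust spread) in 1 fit of 12 libraries with 4 group means and 7 contrasts, two-sided. Standard errors are the log2 fold change over the square root of F. The pipeline was tested on simulated counts of 18118 genes for mannitol in Col-0: calls were made for 71 of 100 genes set to a 1.5-fold change and for 90 of 100 set to a 2-fold change, beside 11 false calls. The simulation gave all genes the same common spread and changed far fewer genes than were called here. Its rates therefore need not hold for these data or for members with few counts. TPM was used for levels, sums and ratios. Alternatives were DESeq2 1.42.0 size factors and Wald test, total count and upper-quartile scaling, omission of the filter or a stricter one (1 CPM in 3 libraries, mean 5 CPM), a replicate block, limma 3.58.1 voom, limma-trend on log2(TPM + 1) and log2(TPM + 0.1), the 2 groups alone, and leaving out each library. Every member is described. Family genes outside the members are named where tested and at 10 TPM or more in a group, and, from each other list, up to 3 called genes with the largest change in a comparison. The permutation test of the TIP3 ratio and the alternatives for genes outside the members were chosen after their values were seen. The members and lists were chosen with earlier results of these data known. Positions, overlaps and promoters came from RefSeq TAIR10.1, whose build name differs from the TAIR10 of the submitters' processing notes. Sequences were read with Python 3.11.15.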

Additional observations from a re-analysis of the deposited data

Results flagged for a closer look

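In 3 aquaporin genes the effect of mannitol differed between the genotypes by the interaction term of the edgeR fit. For TIP3;1 the log2 effect in odr1-2 minus that in Col-0 was -0.94 (SE 0.05, adjusted p = 4.61e-23), from 1.88 in Col-0 and 0.94 in odr1-2. For TIP3;2 it was -0.85 (SE 0.06, adjusted p = 2.52e-17), from 2.46 and 1.61. For NIP1;2, a family gene outside the 10 members, it was -0.34 (SE 0.08, adjusted p = 0.00231), from 0.22 in Col-0, which was called, and -0.12 in odr1-2, which was not.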

How the results depend on the processing

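The calls of TIP3;1 and TIP3;2 held in each of the 7 comparisons under each of 17 other settings (22 for the interaction), with the interaction between -0.99 and -0.93 for TIP3;1 and between -0.90 and -0.82 for TIP3;2. Of 1233 recomputed values of the members, 1148 kept direction and call, 13 gained a call, 35 lost it and 37 changed sign. The members' changes of sign concerned values that were not called. PIP1;2 for mannitol in odr1-2 (0.03) was -0.0083 with upper-quartile scaling, -0.039 with total count scaling, -0.071 by limma-trend on log2(TPM + 1) and on log2(TPM + 0.1), and from -0.0099 to 0.057 with a library left out. PIP1;3 for the mutant in water (0.03) was -0.014 with upper-quartile scaling and from -0.018 to 0.12 with a library left out. PIP1;3 for the mutant in mannitol was 0.0013 with DESeq2 size factors, 0.0061 with the stricter filter, 0.0019 in the DESeq2 Wald test and from -0.12 to 0.084 with a library left out. The PIP2;7 interaction was 0.0059 with DESeq2 size factors, 0.00011 without a filter, 0.0049 with the stricter filter, 0.0058 in the DESeq2 Wald test, 1.4e-05 with the replicate block and from -0.038 to 0.046 with a library left out. With a library left out, PIP1;1 for mannitol in Col-0 ran from -0.23 to 0.011, the interaction of PIP1;1 from -0.16 to 0.077, that of PIP1;3 from -0.15 to 0.050 and that of PIP2;8 from -0.11 to 0.38, and PIP1;5 between odr1-2 in water and Col-0 in mannitol from -0.016 to 0.15. AHA1, a proton pump of the plasma membrane called for mannitol in odr1-2 (0.10), was -0.0078 by limma-trend on both TPM scales. The cause of these changes was not tested.

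Scaling moved the split of all called genes. For mannitol in odr1-2 it was 3907 higher and 3919 lower, but 3068 and 4957 with total count scaling and 2519 and 5152 by limma-trend on log2(TPM + 1), where the median of all genes shifted by -0.10. For the mutant in mannitol it was 3779 and 3603, against 2909 and 4264 by that limma-trend, and between odr1-2 in mannitol and Col-0 in water 5719 and 5677, against 4454 and 6779. Deviations from the group mean correlated only weakly between samples with the same replicate number (from -0.0472 to 0.106 in 18 pairs, median 0.0222). Samples with different numbers had slightly lower values (from -0.0928 to 0.0694 in 36 pairs, median -0.0119). The numbers were not taken to pair the samples, and a weak shared part is not excluded. With the replicate block PIP2;1 lost its rise in odr1-2 (0.53, adjusted p = 0.0503 in edgeR), and no other member's call changed. The stricter filter left PIP2;1 untested. PIP2;8 and PIP2;1 rest on the fewest counts, as few as 27 and 35 in a library.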
